A study of Mus musculus with 18 samples.

Results

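Pax6, Olig2, Olig1, Myod1 and Gata4 are 5 transcription factor genes that direct other lineages than the fibroblast, and their chromatin was described here in mouse embryonic fibroblasts whose retinoblastoma gene Rb can be deleted, after infection with a Cre or a GFP adenovirus. The members were the histone peaks that overlapped, by at least 1 base, 4 windows of build NCBIM37. These were chromosome 2 from 105.49 to 105.55 Mb for Pax6 (60 kb), chromosome 16 from 91.20 to 91.29 Mb for Olig2 and Olig1 (90 kb), chromosome 7 from 53.61 to 53.65 Mb for Myod1 (40 kb) and chromosome 14 from 63.80 to 63.91 Mb for Gata4 (110 kb). The windows held 117 of the 225177 peaks in 8 lists. Of these, 39 Cre and 46 GFP peaks were of H3K27me3, 12 and 15 of H3K4me3, and 2 and 3 of H3Ac (acetylated histone H3). H3K9me3, a mark of heterochromatin, had 0 peaks there in either library. Such peaks were sparse, and among autosomal tiles of the length of the Pax6 window 5.34% held one in Cre and 13.2% in GFP cells. For the length of the Olig2 and Olig1 window these shares were 7.45% in Cre and 18.2% in GFP cells, for Myod1 3.78% and 9.6%, and for Gata4 8.87% and 21.2%.

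Cre cells were conditional KO Rb MEFs (mouse embryonic fibroblasts) of a mixed B6;129 background infected with Adeno-Cre, an adenovirus whose recombinase deletes the conditional allele. GFP cells were conditional KO Rb MEFs of the same description infected with Adeno-GFP, which leaves the allele in place. Both carry the labels "no 4F" and were expanded for at most 3 passages, and each mark had 1 library per condition. All 8 libraries bear replicate number 3, as does the Cre histone input, while the GFP histone input bears number 1. Neither input was analysed here. Every difference between Cre and GFP cells is therefore a description of 2 libraries, with no replicate check, no error over cultures and no p-value. The labels do not say how many embryos the cells came from or what share of the Cre cells had lost Rb. How deeply each library was sequenced is not known. The H3K27me3 lists held 36381 Cre and 36059 GFP peaks, but 7053 of the Cre and 1995 of the GFP peaks were not on autosomes, which leaves 29328 Cre and 34064 GFP peaks on the autosomes, where all 4 windows lie. The H3K4me3 lists held 22621 Cre and 23808 GFP peaks, and the H3K9me3 lists 3985 Cre and 10885 GFP peaks. Fewer cells with a mark and less of the mark per cell cannot be told apart in such bulk samples. Markers of fibroblasts and of other cell types were not looked up, because no annotation of build NCBIM37 was used here, so that the labelled cell type was not checked.

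Pax6 is a paired-box factor needed for eye, brain and pancreas. Olig2 and Olig1 are neighbouring basic helix-loop-helix genes of the oligodendrocyte lineage, Olig2 also of motor neurons. Myod1 is the basic helix-loop-helix factor that starts skeletal muscle differentiation, and Gata4 is a zinc finger factor of heart and endoderm. In cells of other lineages such genes are commonly held silent by Polycomb complexes. Polycomb repressive complex 2 places H3K27me3, often as broad domains around promoters rich in CpG dinucleotides. H3K4me3 marks CpG-rich promoters in general, and its presence together with H3K27me3 is known as bivalent chromatin.

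The promoters of Pax6 and Olig2 are shown because CpG-rich sequence is where both of these marks are usually found. RefSeq sequences of build GRCm38.p6 were matched by symbol for 2 of the 5 genes, Pax6 and Olig2, and not for Olig1, Myod1 and Gata4. Each spans 250 bases before to 50 bases after an annotated start, on the plus strand. Capitals mark every CG dinucleotide, which reads the same on both strands. Their positions are chr2:105668646-105668945 and chr2:105682213-105682512 for 2 starts of Pax6 and chr16:91225300-91225599 for Olig2. They belong to another build than the peaks and cannot be set against the peak positions.
Pax6, first start: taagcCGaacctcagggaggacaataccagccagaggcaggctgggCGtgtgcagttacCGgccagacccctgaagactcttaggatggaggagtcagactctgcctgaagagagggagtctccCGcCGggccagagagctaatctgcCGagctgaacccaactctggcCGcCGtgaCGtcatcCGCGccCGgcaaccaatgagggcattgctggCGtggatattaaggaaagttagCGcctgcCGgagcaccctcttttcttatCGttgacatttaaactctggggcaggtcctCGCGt
Pax6, second start: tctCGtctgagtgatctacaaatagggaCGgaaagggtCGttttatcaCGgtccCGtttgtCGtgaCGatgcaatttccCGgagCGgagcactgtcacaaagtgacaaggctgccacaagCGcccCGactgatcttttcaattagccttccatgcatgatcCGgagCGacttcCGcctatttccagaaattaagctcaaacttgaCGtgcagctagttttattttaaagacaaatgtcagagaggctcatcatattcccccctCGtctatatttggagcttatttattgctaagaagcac
Olig2: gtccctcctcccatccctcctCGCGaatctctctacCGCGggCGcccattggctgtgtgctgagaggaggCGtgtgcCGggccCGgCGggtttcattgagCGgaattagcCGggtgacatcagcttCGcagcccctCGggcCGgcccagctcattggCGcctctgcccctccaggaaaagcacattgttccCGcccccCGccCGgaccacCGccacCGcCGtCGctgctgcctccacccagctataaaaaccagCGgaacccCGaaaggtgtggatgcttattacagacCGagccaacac
The Olig2 promoter held 25 CG, with an observed over expected ratio of 0.815, and 18.4% of the 32851 promoters in the table held at least as many. The Pax6 promoters held 18 and 16 CG, with ratios of 0.698 and 0.998, and 29.7% and 33.0% of promoters held at least as many. GC content was 65.0% for Olig2, and 58.7% and 46.3% for the first and second Pax6 start. At least 1 CG was present in 94.6% of all promoters, whose median was 7 CG and a ratio of 0.384.

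H3K27me3 was present in all 4 windows in both libraries. It covered 183.6 kb of the 300 kb in Cre cells and 186.5 kb in GFP cells, a ratio of 0.985. Both libraries covered the same 168.0 kb, which is 91.5% of the Cre and 90.1% of the GFP covered length. The Myod1 window stood apart from the other windows by a smaller covered share in both libraries. The windows of Pax6, of Olig2 and Olig1, and of Gata4 held broad blocks that filled 61.4% to 77.0% of the window in Cre cells and 63.2% to 69.9% in GFP cells. The Myod1 window was covered for 17.1% in Cre cells and 32.6% in GFP cells.

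**Figure D1:**
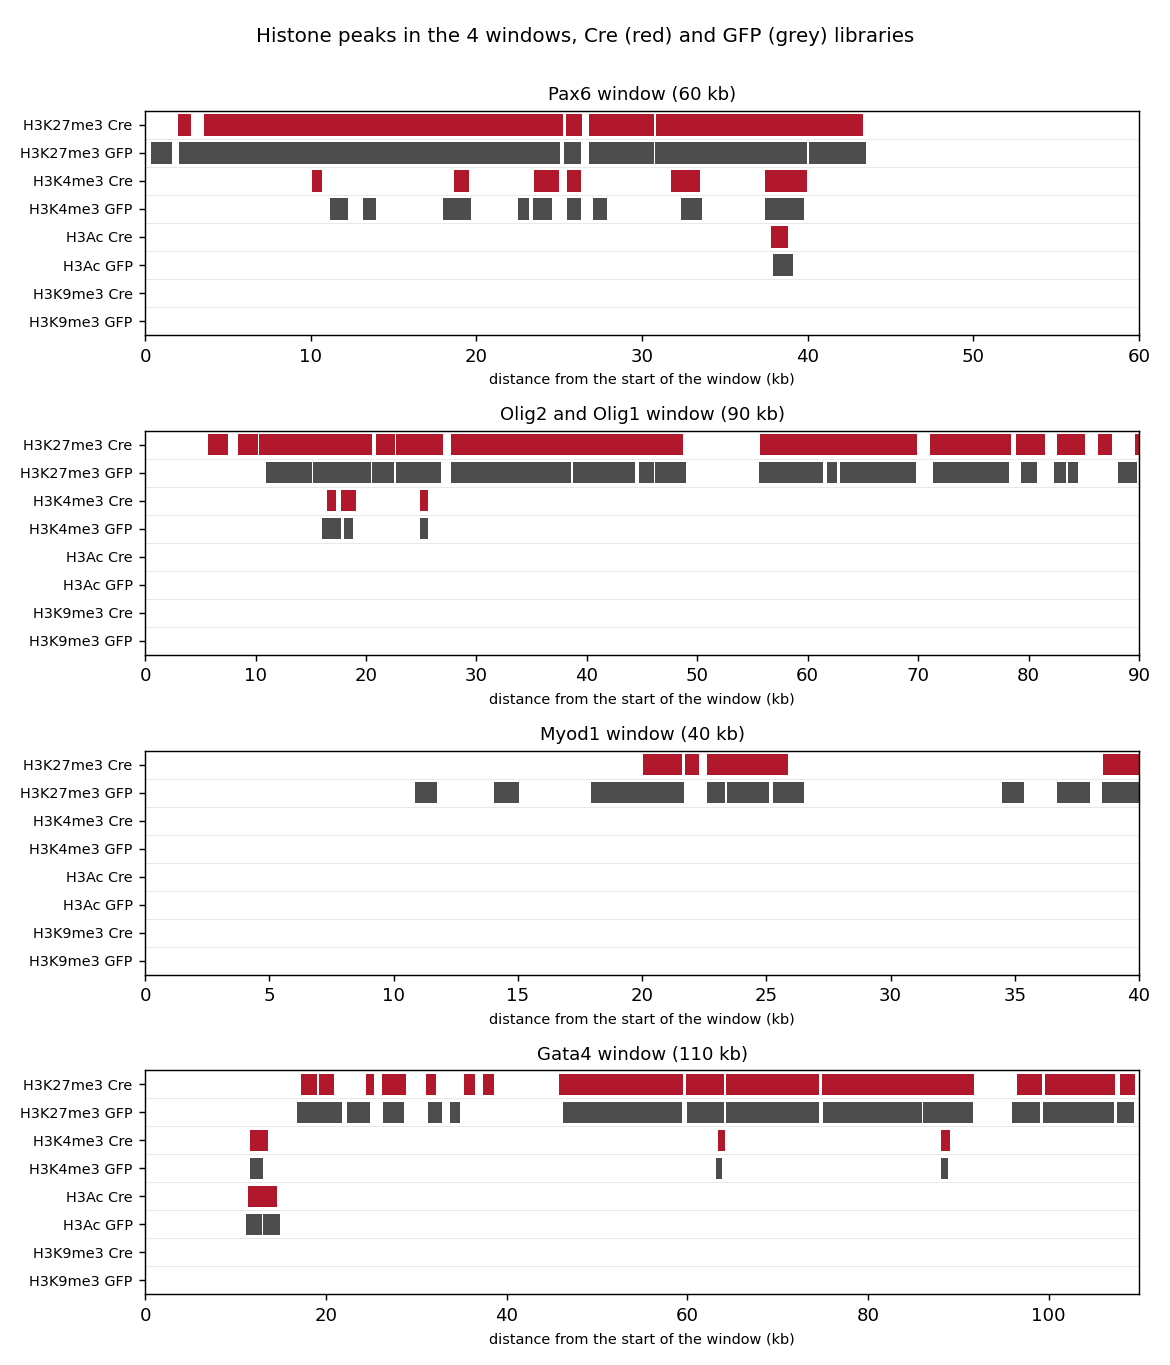
Peaks of 4 histone marks in the Pax6, Olig2 and Olig1, Myod1 and Gata4 windows, drawn as bars against the distance from the start of the window in kb, with the Cre library (red) above the GFP library (grey) for each mark. H3K27me3 forms wide blocks in 3 windows, with nearly the same outline in both libraries for Pax6 and for the Gata4 domain and an earlier Cre start of the first block for Olig2 and Olig1, H3K4me3 has no peak in the Myod1 window, and H3K9me3 has none in any of the 4.

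Over all autosomes, 77.3% of Cre H3K27me3 peaks overlapped a GFP peak and 68.3% of GFP peaks overlapped a Cre peak. In the windows these were 32 of 39 Cre peaks (82.1%) and 38 of 46 GFP peaks (82.6%). The 2 Cre and 3 GFP peaks of H3Ac each overlapped one of the other library, as did 84.6% of Cre and 73.2% of GFP H3Ac peaks over all autosomes. Peaks of at least 10 kb were 7 of 39 in the Cre and 5 of 46 in the GFP library, where 0.948% and 0.74% of all autosomal peaks were as wide. The genes were listed as Polycomb targets when they were chosen, so that their wide H3K27me3 describes the choice.

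**Figure D2:**
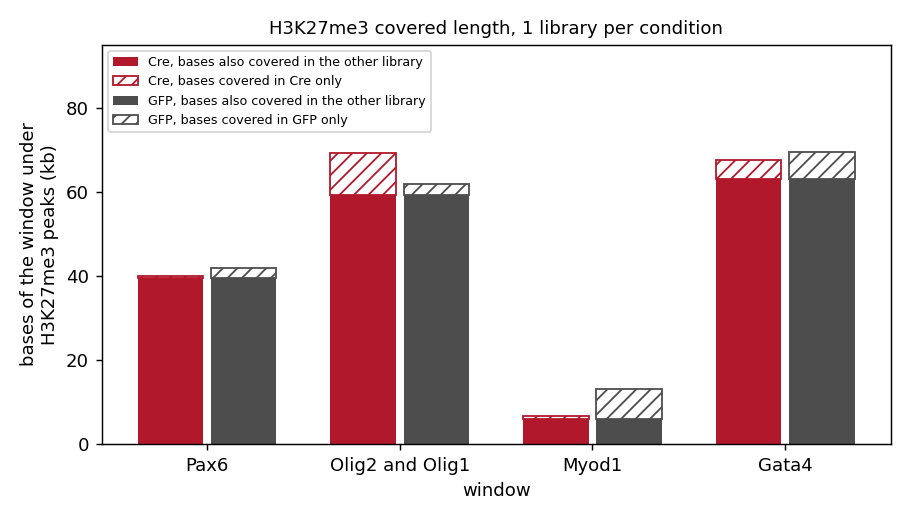
Bases of each window under H3K27me3 peaks, in kb, with the Cre library left of the GFP library. Solid bars are bases covered in both libraries and hatched parts are bases covered in 1 library, which are largest for Cre in the Olig2 and Olig1 window (9.945 kb) and for GFP in the Myod1 window (7.023 kb).

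The Pax6 window held the H3K27me3 with the closest match between libraries. Its peaks covered 39.96 kb in Cre cells and 41.95 kb in GFP cells, and the 39.55 kb in common were 93.4% of the bases covered in either. With peaks joined across gaps of at most 1000 bases, a single domain remained in each library. It spanned 41.4 kb from 105491970 to 105533353 in Cre cells, the 35th widest of 23251 joined domains, and 43.2 kb from 105490330 to 105533543 in GFP cells, the 30th widest of 23442. Width ranks of joined domains, here and for the other windows, count all chromosomes. Ranks among autosomal domains alone were not computed. The widest single peak was 21691 bases in Cre cells, from 105493562 to 105515252, and 23001 bases in GFP cells, from 105492027 to 105515027. Among all H3K27me3 peaks of its list, this peak stood in the top 0.896% by score and the top 0.044% by width in Cre cells, and in the top 0.441% and 0.0111% in GFP cells.

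The highest H3K27me3 score of the Pax6 window lay in the right part of the block in each library. Scores are the authors' own, and many top scores are tied at 3100, a value shared by 265 Cre and 123 GFP H3K27me3 peaks, which share rank 26 of 36381 in the Cre and rank 23 of 36059 in the GFP list. In Cre cells 2 peaks had this score, one of 12540 bases from 105520814 to 105533353 and one of 3969 bases from 105516776 to 105520744. In GFP cells it was 1 peak of 9182 bases from 105520801 to 105529982. The next highest GFP score, 2983, was that of the widest peak, in the left part of the block. The GFP block was split once more, by a gap of 75 bases after 105529982 that the Cre library did not have. GFP-only H3K27me3 in the window amounted to 2.396 kb, with a peak of 1286 bases at the start of the block (score 143) as its longest stretch. Cre-only bases came to 0.409 kb, in stretches of at most 225 bases.

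**Figure D3:**
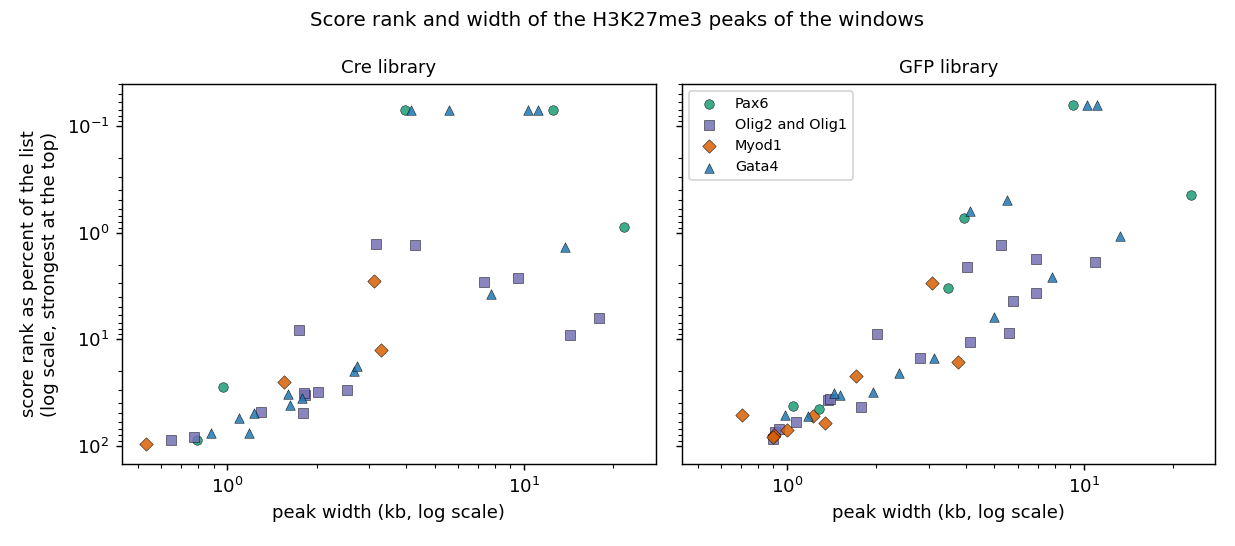
Score rank, as percent of all peaks of the list, against width in kb for each H3K27me3 peak of the windows, Cre library left and GFP library right, both axes logarithmic with the strongest peaks at the top. Peaks of the Pax6 and Gata4 windows reach the tied score of 3100 in both libraries. The best peak of the Myod1 window, which reaches past its end, ranks at 2.88% in the Cre and 2.96% in the GFP library. Among autosomal peaks it ranks at 3.49% and 3.11%.

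The Gata4 window had the widest joined domain of the 4 in both libraries. It spanned 45.9 kb from 63845779 to 63891687 in Cre cells, the 25th widest in the list, and 45.3 kb from 63846253 to 63891590 in GFP cells, the 22nd widest. In each library it consisted of 5 adjoining peaks. The widest was 13740 bases in Cre cells, from 63845779 to 63859518, and 13211 bases in GFP cells, from 63846253 to 63859463. The next widest was 11134 bases in Cre cells, from 63874919 to 63886052, and 11048 bases in GFP cells, from 63874979 to 63886026, and it had the tied score of 3100 in both. That score was reached by 4 of the 5 peaks in Cre cells and by 2 in GFP cells, where the others scored between 2189 and 2865. These other GFP peaks ranked between 0.499% and 1.07% of their list. In the whole H3K27me3 lists 265 Cre and 123 GFP peaks had the tied score.

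The borders inside the Gata4 domain nearly coincided between libraries. The 5 peaks have 10 edges, of which 9 differed by 97 bases or less between Cre and GFP, and the outer left edge lay 474 bases further out in Cre cells. Over all autosomes, 42.5% of the edges of 2044 one-to-one peak pairs with at least 3000 bases in common lay within 100 bases of each other. For such pairs in the 4 windows, which include these 5, it was 15 of 20 edges (75.0%). Counted over whole windows, 11 of 22 edges of such pairs of any width did so for Gata4, 3 of 4 for Pax6, 2 of 4 for Myod1 and 1 of 8 for Olig2 and Olig1. These are 17 of 38 edges (44.7%), where the share over all autosomes and widths was 30.9%. The 4 short gaps that separate the peaks overlapped between libraries. Their lengths were 385, 216, 343 and 35 bases in Cre cells and 478, 251, 388 and 69 bases in GFP cells. Over the 4 windows, 15 of 25 Cre gaps of at most 1000 bases overlapped such a gap in the GFP library, where the share over all autosomes was 39.0%. In the other direction it was 14 of 29 GFP gaps, against 33.6% over all autosomes. The overlap was uneven. It covered 7 of 10 Cre and 7 of 10 GFP gaps in the Gata4 window, and 3 of 9 Cre and 3 of 10 GFP gaps in the Olig2 and Olig1 window.

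Weaker H3K27me3 lay on both sides of the Gata4 domain. From 63816765 to 63838614 the Cre library had 7 short peaks with scores of 79.0 to 400, and the GFP library 6 with scores of 120 to 955. The highest of these, a GFP peak of 4963 bases from 63816765 to 63821727, was in the top 6.23% of its list, and Cre peaks covered 69.0% of it. Beyond the domain lay a peak of 7767 bases in Cre cells, from 63899545 to 63907311 (score 1451), and of 7817 bases in GFP cells, from 63899405 to 63907221 (score 1515). It was part of a second joined domain, of 22.0 kb in the Cre library and 22.5 kb in the GFP library, that reached past the end of the window. In RefSeq's gene order of build GRCm38.p6, the protein-coding neighbours of Gata4 are Neil2 and Blk. Which of the genes lies under which peak was not determined.

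The Olig2 and Olig1 window had a wide first H3K27me3 block and, after a bare stretch, a second group of domains in both libraries. The bare stretch, without any H3K27me3 peak, was 6.98 kb in Cre cells, from 91248722 to 91255697, and 6.7 kb in GFP cells, from 91248936 to 91255631. The first block spanned 43.1 kb in Cre cells, from 91205650 to 91248721, the 30th widest joined domain of its list. In GFP cells it spanned 38.0 kb, from 91210932 to 91248935, the 43rd widest. The first domain after the bare stretch was 14.2 kb in both, a single Cre peak from 91255698 to 91269938 with a score of 816 and 3 GFP peaks between 91255632 and 91269835 with scores of 77.8 to 1793. The highest score of the window ranked at 1.28% of the Cre list, a peak of 3171 bases with a score of 2483 from 91227649 to 91230819. In the GFP list it ranked at 1.31%, a peak of 5263 bases with a score of 2024 from 91215185 to 91220447. Among autosomal peaks alone the order turned, with ranks of 1.57% for Cre and 1.38% for GFP. No peak of this window reached the tied score of 3100.

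The widest Olig2 and Olig1 peaks were 17876 bases in Cre cells, from 91230846 to 91248721, and 10947 bases in GFP cells, from 91227650 to 91238596. GFP peaks covered 96.9% of that Cre peak, divided among 4 of them. The next widest GFP peak was 6900 bases, from 91271371 to 91278270 (score 1281), and the Cre peak there was 7330 bases (score 1665). This window had more covered length in Cre than in GFP cells, 69.28 kb and 61.95 kb, a ratio of 1.12. The longest of the Cre-only stretches, 9.945 kb in all, were peaks of 1802 and 1827 bases at the left end of the first block and a peak of 1295 bases from 91286255 to 91287549. Together with a peak of 646 bases, those at the left end spanned 91205650 to 91210912 and ranked by score at 49.6%, 33.2% and 89.5% of the Cre list. The next Cre peak began at 91210936, close to the GFP start of the block. GFP-only bases came to 2.606 kb.

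The Myod1 window differed from the others in the size, the score and the sharing of its H3K27me3. Its peaks covered 6.82 kb in Cre cells and 13.04 kb in GFP cells, a ratio of 0.523, and the 6.014 kb in common were 43.4% of the bases covered in either. The Cre library had 4 peaks, of which 3 overlapped a GFP peak. The GFP library had 9, of which 5 overlapped a Cre peak. All 4 GFP peaks without a Cre counterpart scored below 100, between 65.2 and 99.8, and ranked between 61.0% and 82.4% of the list.

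The highest-scoring H3K27me3 peak of the Myod1 window lay at its edge and reached past it. It was 3113 bases with a score of 1670 in Cre cells, from 53648553 to 53651665, and 3080 bases with a score of 1424 in GFP cells, from 53648514 to 53651593. Without it, the highest score was 620.5 in Cre and 438.5 in GFP cells, and the covered length was 5.372 kb and 11.55 kb, a ratio of 0.465. The protein-coding neighbours of Myod1 in RefSeq's order are Otog and Kcnc1, and the gene under the edge peak was not determined. Inside the window, the Cre library had its widest peak from 53632601 to 53635890, of 3290 bases and a score of 620.5, in the top 12.7% of the list. GFP cells had their widest from 53627935 to 53631704, of 3770 bases and a score of 438.5, in the top 16.6%. Cre peaks covered 41.1% of this GFP peak. The Cre peak there, of 1549 bases with a score of 306, began at 53630046.

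The windows were set against autosomal tiles of the same length in which H3K27me3 covered at least 20% of the bases, as a mean of the 2 libraries. Such tiles were 4.0% of all autosomal tiles for the length of the Pax6 window, 3.77% for Olig2 and Olig1, 4.16% for Myod1 and 3.65% for Gata4. The median tile had a Cre to GFP ratio of covered length between 0.954 and 0.966, depending on tile length, and 67.2% to 67.8% of the bases covered in either library were covered in both. The ratios of Pax6 (0.953) and Gata4 (0.971) lay near the median. The ratio of Olig2 and Olig1, 1.12, was above that of 83.6% of 1034 tiles, and that of Myod1, 0.523, was above that of 2.22% of 2568 tiles. With peaks scoring at least 100 only, in windows and tiles alike, the Myod1 ratio was 0.707, above that of 13.5% of 2133 tiles and within their 5th to 95th percentile of 0.582 to 1.54. The shared percentage was above that of 97.8% of 1646 tiles for Pax6, 90.7% of 819 tiles for Gata4 and 85.5% for Olig2 and Olig1. For Myod1 it was above that of 8.37% of tiles. Most of these tiles held less H3K27me3 than the windows of Pax6, of Olig2 and Olig1, and of Gata4. Tiles of equal coverage were not compared. Tiles with at least as much covered length were 0.238% of all autosomal tiles in Cre and 0.231% in GFP cells for Pax6, 0.0656% and 0.164% for Olig2 and Olig1, 4.75% and 2.34% for Myod1, and 0.196% and 0.187% for Gata4.

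**Figure D4:**
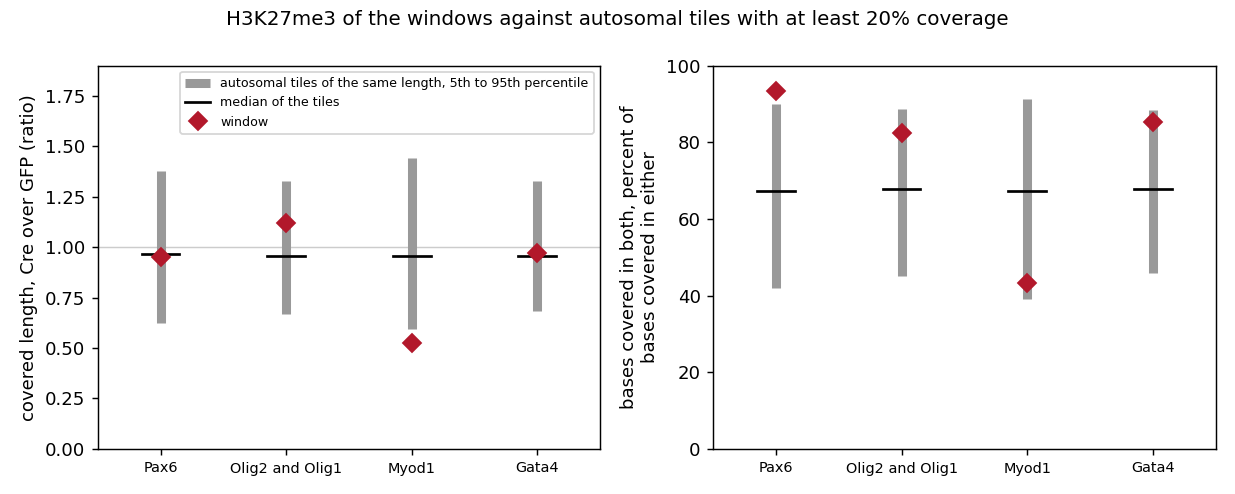
H3K27me3 of each window (red diamonds) beside autosomal tiles of the same length with at least 20% mean coverage, as the 5th to 95th percentile (grey bar) and median (black line), for the Cre over GFP ratio of covered length on the left and for the bases covered in both as percent of those in either on the right. All deposited peaks are used, and most tiles hold less H3K27me3 than the Pax6, the Olig2 and Olig1, and the Gata4 windows. The Myod1 ratio of 0.523 lies below the grey bar, which it does not with peaks scoring at least 100 only, and the Pax6 shared percentage of 93.4% lies above it, while the other values lie within.

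H3K4me3 in the windows had low scores and lay mostly inside H3K27me3, with 85.1% of its bases in Cre and 91.7% in GFP cells, compared with 6.5% and 6.91% over all autosomes. Over all autosomes, 12.8% of Cre and 12.3% of GFP H3K4me3 peaks overlapped H3K27me3 of the same library. In the windows 11 of 12 Cre peaks and 14 of 15 GFP peaks did. The windows were chosen as Polycomb targets, and H3K27me3 covered 61.2% of their bases in Cre and 62.2% in GFP cells. Overlap above the autosomal share is therefore fixed in part by that choice. Conversely, H3K4me3 touched 7 of 39 Cre and 8 of 46 GFP H3K27me3 peaks, where 9.96% and 8.39% of autosomal ones did, and H3Ac touched 1 in each library, where 5.86% and 3.37% did. H3Ac was found on 2 of 12 Cre and 2 of 15 GFP H3K4me3 peaks of the windows, while 85.3% and 80.5% of autosomal H3K4me3 peaks carried it. Most of those autosomal peaks had no H3K27me3, and the H3Ac share among those with H3K27me3 was not computed. H3K4me3 peaks of the windows had a median score of 122.0 for Cre, with a list median of 886.9, and of 106.3 for GFP, with a list median of 564.7. Only 1 peak in each library, in the Pax6 window, had a score in the upper 50% of its list. Among all autosomal H3K4me3 peaks with H3K27me3, 15.2% in Cre and 14.0% in GFP cells did so, and among those without H3K27me3, 55.3% and 55.4%. Peaks of cells in bulk do not show that both marks were on the same chromosome copy or in the same cell.

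That peak of the Pax6 window was 2540 bases with a score of 1672 in Cre cells, from 105527432 to 105529971, and 2328 bases with a score of 1342 in GFP cells, from 105527440 to 105529767. It ranked at 38.9% of the Cre and 35.3% of the GFP list. It was also the one place in the 4 windows with all 3 marks, since an H3Ac peak of 1004 bases in Cre cells (score 85.95), from 105527800 to 105528803, and of 1240 bases in GFP cells (score 120.9), from 105527897 to 105529136, lay within it. All of it was inside the H3K27me3 block in both libraries. The remaining H3K4me3 peaks of the Pax6 window scored between 52.0 and 311 in Cre cells (5 peaks) and between 59.0 and 309 in GFP cells (8 peaks).

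Along the Pax6 block, H3K4me3 lay on 20.5% of the H3K27me3 bases in Cre cells and 25.5% in GFP cells, compared with 4.46% and 4.07% over all autosomes. Of the 6 Cre peaks, 5 had a GFP counterpart, and of the 9 GFP peaks, 5 had a Cre counterpart. The 4 GFP peaks without one scored from 59.0 to 115, and the Cre peak without one scored 52.0. Over all autosomes 87.4% of Cre and 89.4% of GFP H3K4me3 peaks had a counterpart, and over the 4 windows 11 of 12 and 11 of 15 did. The second widest H3K4me3 peak of the window was 1749 bases in Cre cells, from 105521754 to 105523502 (score 311), and 1683 bases in GFP cells, from 105507971 to 105509653 (score 176).

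**Figure D5:**
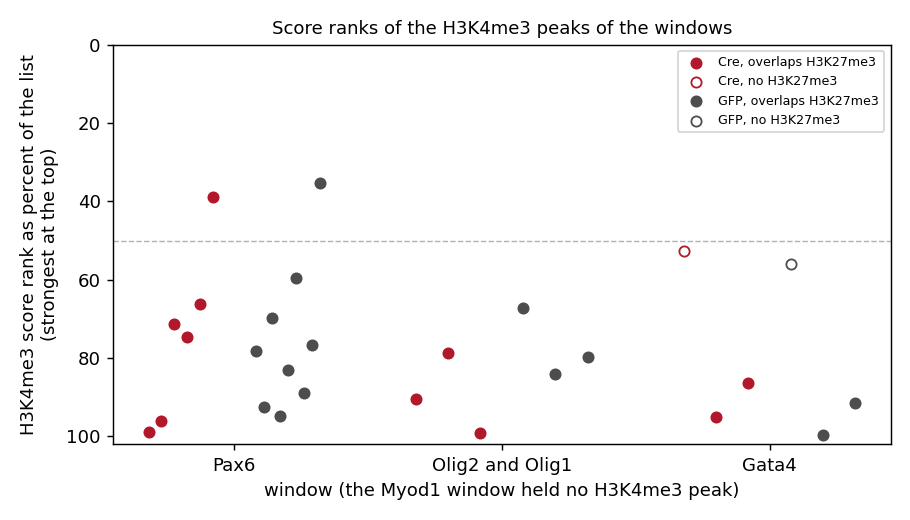
Score rank, as percent of all H3K4me3 peaks of the list, of each H3K4me3 peak in the Pax6, Olig2 and Olig1, and Gata4 windows, Cre (red) left of GFP (grey), with filled points for peaks that overlap H3K27me3 and open points for those that do not. The dashed line marks the middle of the list, above which lies 1 Pax6 peak in each library, at 38.9% in Cre and 35.3% in GFP cells.

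The Olig2 and Olig1 window had 3 H3K4me3 peaks in each library, all in the first H3K27me3 block and none after the bare stretch. In Cre cells they lay from 91216418 to 91217266 (score 79.0), from 91217738 to 91219084 (score 145) and from 91224918 to 91225623 (score 51.4). In GFP cells they lay from 91216023 to 91217755 (score 202), from 91218040 to 91218840 (score 89.9) and from 91224891 to 91225604 (score 106). Each overlapped a peak of the other library, and all ranked in the lower 50% of the list. No H3Ac peak was found in this window in either library.

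The Gata4 window had 3 H3K4me3 peaks in each library at the same 3 places. Within the wide H3K27me3 domain were 2 of them. One lay from 63863407 to 63864213 in Cre cells (score 62.1) and from 63863130 to 63863875 in GFP cells (score 50.4). The other lay from 63888105 to 63889028 in Cre cells (score 98.6) and from 63888121 to 63888915 in GFP cells (score 66.5). The third stood outside H3K27me3, from 63811552 to 63813636 with a score of 741 in Cre cells and from 63811640 to 63813038 with a score of 384 in GFP cells. By rank it stood at 52.7% of the Cre and 56.1% of the GFP list. It carried H3Ac in both. The Cre H3Ac peak scored 720 and was 3156 bases, from 63811400 to 63814555. The stronger GFP peak scored 329 and was 1784 bases, from 63811135 to 63812918. They ranked at 27.3% of the Cre and 41.0% of the GFP list. A further GFP H3Ac peak (score 113) followed, from 63813055 to 63814952. The H3K27me3 peak nearest to the H3K4me3 peak was 3568 bases away in Cre cells and 3726 bases in GFP cells. Just before the window, H3K4me3 and H3Ac were present again, at 2.07 kb and 1.96 kb in Cre cells and at 2.08 kb and 1.85 kb in GFP cells.

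The Myod1 window had 0 peaks of H3K4me3 and 0 of H3Ac in both libraries. The nearest H3K4me3 peaks lay 319 kb before and 244 kb after the window in Cre cells, and at the same rounded distances in GFP cells. A list without a peak says that no peak passed the authors' threshold there, not that the mark was absent.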

How the data were processed

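Of 18 samples in the series, the 8 histone libraries with a peak list were used, grouped by their titles into 4 marks in Cre and GFP cells with 1 library each. The other 10 samples were not analysed here. The deposited lists hold chromosome, start, end, peak name and a score per peak, whose unit the files do not state. Scores were used to rank peaks within a list. Peak names begin with MACS, and the submitters' processing notes name MACS 1.4.1, BWA, SAMtools 0.1.18, bedtools 2.16.2 and build NCBIM37. Which input served as control for a list and the number of reads are not given in the sources used here, and both affect which peaks are called and their scores.

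Starts were written counting from 1. Coverage, overlap of at least 1 base, ranks (ties share the best rank) and joined domains were computed with pandas 2.3.3 and NumPy 2.4.6 under Python 3.11.15, and figures were drawn with matplotlib 3.10.9. Overlap lengths were first tested on simulated intervals against a base-by-base count. Finding peaks by overlap was tested on a thinned and shifted copy of the GFP H3K27me3 list. Joining of peaks within 1000 bases was not tested in this way. Background shares used autosomal peaks. Tiles ran from the start of each chromosome to its last peak.

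All 5 genes were named. Peaks were given in full where a window held at most 3 of a mark and library, otherwise the 2 widest and the highest-scoring. Other peaks in the text, the tiles, the gaps and the edges were chosen after their values were seen. The members and lists were chosen with earlier results of these data known. A list of other Polycomb-regulated genes and cell type markers was not run, since the gene tables at hand are of build GRCm38.p6. Alternatives were a minimum score of 100, peaks joined within 1000 bases, equal numbers of top-scoring autosomal peaks, the midpoint of a peak in the window, and overlap of at least 50% of the peak.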

Additional observations from a re-analysis of the deposited data

How the results depend on the processing

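The covered length of H3K27me3 over the 4 windows ranged from 178.8 to 192.6 kb in Cre cells and from 180.4 to 195.9 kb in GFP cells over the 4 alternatives that apply, and their ratio from 0.983 to 0.991. All 4 windows kept an H3K27me3 peak in both libraries under each of these. With a minimum score of 100, 5 of 6 Cre and 7 of 8 GFP H3K4me3 peaks of the windows overlapped H3K27me3, fewer because weak peaks were left out. With peaks joined within 1000 bases, 13 of 15 Cre and 14 of 18 GFP H3K27me3 domains were shared, and 9 of 10 GFP H3K4me3 domains overlapped H3K27me3, fewer because peaks were joined. The Myod1 ratio of Cre to GFP covered length, 0.523, was 0.707 with a minimum score of 100, 0.496 with joined peaks and 0.465 by midpoint. Ranked among autosomal peaks, the highest H3K27me3 scores stood at 0.0887% in Cre and 0.0675% in GFP cells for Pax6 and for Gata4, 1.57% and 1.38% for Olig2 and Olig1, and 3.49% and 3.11% for Myod1. For Olig2 and Olig1 and for Myod1, Cre ranked better than GFP in the whole lists and worse among autosomal peaks. The Myod1 ranks are those of the edge peak that reached past the window. The highest-scoring Myod1 peak wholly inside ranked at 12.7% in Cre and 16.6% in GFP cells. Among autosomal peaks it ranked at 14.9% and 17.4%, so that Cre ranked better both ways. The ratios of single windows, their place among tiles with a minimum score, the autosomal ranks and the score without the edge peak were chosen after seeing the data. No paired analysis was possible because each mark had 1 library per condition, and for the same reason no replicate could be left out.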

Other observations

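At the end of the Olig2 and Olig1 window, the Cre library had a joined H3K27me3 domain of 7.7 kb, from 91289641 to 91297342, made of 4 peaks, the first of which began inside the window. The last H3K27me3 peak of the GFP library in the window ran from 91288095 to 91289867 and shared 227 bases with it.

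The nearest H3K9me3 peak in the Cre library, whose list held 3985 peaks, lay 332 kb before the Gata4 window. In the GFP library, whose list held 10885, it lay 90.9 kb before the Pax6 window. How these distances compare with the spacing of the peaks elsewhere was not tested.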
